A study of Caenorhabditis elegans with 2 samples.

Results

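The genes of the mitochondrial ribosomal proteins were the subject of the account, taken as every protein-coding gene of the Ensembl WBcel235 annotation of Caenorhabditis elegans whose name begins with mrpl- or mrps-. There were 70 such genes among 19973 protein-coding genes of the nuclear chromosomes, 41 of the large subunit (mrpl-) and 29 of the small subunit (mrps-), and all 70 were kept whether or not a peak lay near them. Binding of the transcription factor HLH-15 had been mapped by chromatin immunoprecipitation and sequencing (ChIP-seq) in whole hermaphrodite late embryos, collected 3 hours after egg bleaching. The only group was strain OP566, which carries unc-119(tm4063) on chromosome III and the transgene wgIs566, HLH-15 with GFP and FLAG at its C terminus, and it was sampled in 2 biological replicates. The labels give the age as unknown. The description names an antibody against GFP while the antibody label names hlh-15. All cell types of the embryo were in each sample, so a peak cannot be assigned to a tissue.

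Mitochondrial ribosomes translate the few proteins encoded by mitochondrial DNA, which are core subunits of the respiratory chain and ATP synthase. Their own proteins are encoded in the nucleus, made in the cytosol and imported, so that both genomes must supply parts in step. In C. elegans, knockdown of mrps-5 is known to induce the mitochondrial unfolded protein response and to lengthen life. HLH-15 belongs to the basic helix-loop-helix proteins, which recognise E-boxes, written CANNTG.

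The 4 peak lists of the assembly ce11, which has the same sequence as WBcel235 differed in length and strictness. The pooled list held 17654 peaks, the replicate 1 list 21250 and the replicate 2 list 30000, and all 3 hold background as well as peaks. The list the authors cut by irreproducible discovery rate (IDR, which scores whether a peak ranks alike in both replicates) held 407 peaks, which were the pooled peaks with a signal of at least 58.9. Signal is the authors' score of each peak, on a scale that is not stated. It ranks peaks within a list and was not compared between lists, and ranks from lists of different length show no change. Read depth is unknown. A gene was counted when a peak summit lay within 1 kb of one of its transcript starts. With 1 group there was no contrast to test, so counts are set beside the share of all protein-coding genes, and intervals are Wilson 95% intervals that cover counting over genes only.

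The DNA under the summits of 5 of the 7 members in the strongest 10% of the pooled list is given first. The other members of that group, mrpl-23 and mrpl-15, are not printed, and their windows of 201 bp held no CGCACA. Each run covers the summit base and 50 bases to each side in WBcel235 (RefSeq sequence), read 5′ to 3′ on the strand of the gene. Capitals mark E-boxes (CANNTG) and CGCACA or its reverse complement TGTGCG, a motif picked out earlier on these same peaks, and the last 2 runs hold neither. The mrpl-12 run is chrIII:10707206-10707306 on the plus strand, mrpl-39 is chrV:1821435-1821535 on the plus strand and mrpl-18 is chrIII:8144711-8144811 on the plus strand. The mrpl-55 run is chrIV:443858-443958 on the plus strand and mrpl-45 is chrIII:1202233-1202333 on the minus strand.
mrpl-12: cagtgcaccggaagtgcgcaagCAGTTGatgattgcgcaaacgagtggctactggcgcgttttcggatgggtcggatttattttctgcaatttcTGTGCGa
mrpl-39: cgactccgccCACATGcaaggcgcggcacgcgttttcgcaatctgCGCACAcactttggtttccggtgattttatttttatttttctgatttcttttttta
mrpl-18: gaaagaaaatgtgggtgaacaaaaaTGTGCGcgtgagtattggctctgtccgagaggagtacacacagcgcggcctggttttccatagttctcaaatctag
mrpl-55: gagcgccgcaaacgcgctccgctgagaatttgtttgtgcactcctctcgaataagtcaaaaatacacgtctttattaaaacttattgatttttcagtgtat
mrpl-45: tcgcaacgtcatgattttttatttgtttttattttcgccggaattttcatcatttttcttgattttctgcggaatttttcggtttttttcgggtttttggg

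Summits lay near 35 of the 70 mitochondrial ribosomal genes in the pooled list, which holds background as well as peaks. The deposited −log10 q, which is near 0 where the evidence for a peak is weak, was 3 at the 4 members with an IDR peak. It was 1.77 at mrpl-15, 1.35 at mrpl-55 and 1.27 at mrpl-45. At mrpl-49 it was 0.501, and it fell further with signal, to 0.0185 at mrpl-53. These values were not set beside those of all genes. The share with a pooled peak was 50% (interval 38.6 to 61.4), beside 35.7% of all protein-coding genes. No member is on the X chromosome, and among autosomal genes the share was 36%. The replicate 1 list had a peak at 35 members, beside 40.8% of all genes, and the replicate 2 list at 44 members (62.9%), beside 52.4%. Both replicate lists had one at 25 members (35.7%, interval 25.5 to 47.4), beside 27.6% of all genes. In each of these lists the members' share stood above that of all genes, but the intervals for replicate 1 (38.6 to 61.4), replicate 2 (51.1 to 73.2) and both together include that of all genes. A peak passed the IDR threshold at 4 members (5.71%, interval 2.24 to 13.8), beside 1.78% of all genes, and the 4 genes were mrpl-23, mrpl-12, mrpl-39 and mrpl-18. The strongest 10% of the pooled list reached 7 members (10%, interval 4.93 to 19.2), beside 6.35% of all genes, a background that lies inside the members' interval.

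**Figure D1:**
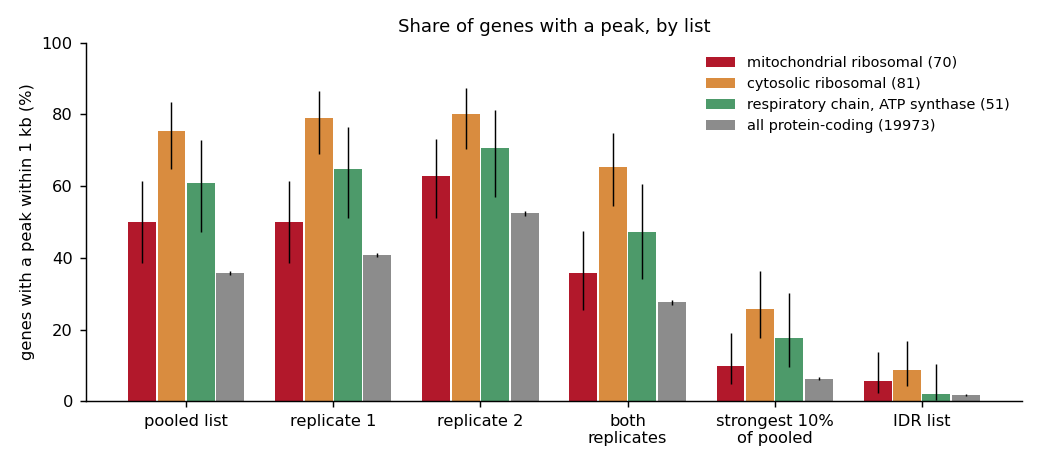
Share of genes (y axis, percent) with a peak summit within 1 kb of a transcript start, for 6 readings of the peak lists (x axis), with Wilson 95% intervals that cover counting over genes only. From left to right in each cluster the bars are the 70 mitochondrial ribosomal genes, 81 cytosolic ribosomal genes, 51 respiratory chain and ATP synthase genes and all 19973 protein-coding genes; in the pooled list they stand at 50%, 75.3%, 60.8% and 35.7%.

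The other 5 gene sets, of mitochondria and of the cytosolic ribosome, each had a higher pooled share than the 35.7% of all genes, and in the smallest sets the intervals were wide. Genes of cytosolic ribosomal proteins had a pooled peak in 61 of 81 cases (75.3%, interval 64.9 to 83.4) and an IDR peak in 7 (8.64%, beside 1.78% of all genes), led by rpl-3 with a pooled signal of 119.5. Nuclear genes of the respiratory chain and ATP synthase had a pooled peak in 31 of 51 cases (60.8%, interval 47.1 to 73) and an IDR peak in 1 (1.96%, near the background), cox-5A, a subunit of cytochrome c oxidase (signal 64.6). Of 11 genes for mitochondrial translation and mitochondrial DNA factors, 7 had a pooled peak (63.6%, interval 35.4 to 84.8, which includes the background) and 3 an IDR peak (27.3%, interval 9.75 to 56.6). These were mtss-1, the mitochondrial single-stranded DNA-binding protein (86.5), mma-1 (70.2), whose summit lay inside a tRNA or snoRNA gene, and gfm-1, the mitochondrial elongation factor G (66.3). Mitochondrial import had a pooled peak at 10 of 13 genes (76.9%, interval 49.7 to 91.8) and 1 IDR peak (7.69%, interval 1.37 to 33.3), at mppb-1, a subunit of the presequence-cleaving peptidase (61.8). The mitochondrial stress response had a pooled peak at 8 of 9 genes (88.9%, interval 56.5 to 98) and 1 IDR peak (11.1%, interval 1.99 to 43.5), at the chaperone gene hsp-60 (61.1), and these last 2 lists share hsp-6. The mitochondrial ribosomal genes thus had the lowest pooled share of the 6 sets, a difference that was not tested. Counted by nearest start alone, the gap to the 2 larger sets was smaller. That share was 40% of members (interval 29.3 to 51.7), beside 30.9% of all genes. It was 46.9% of cytosolic ribosomal genes (36.4 to 57.7) and 47.1% of respiratory chain and ATP synthase genes (34.1 to 60.5). The shares of the translation, import and stress response sets stayed at 63.6%, 76.9% and 88.9%.

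Within 1 kb of a start, the members' strongest pooled peaks were at genes of the large subunit, while the strongest replicate peaks of any member were at mrps-28 of the small subunit. Genes of the large subunit had a pooled peak in 24 of 41 cases (58.5%, interval 43.4 to 72.2), and those of the small subunit in 11 of 29 (37.9%, interval 22.7 to 56). The share of all genes, 35.7%, lay below the first interval and inside the second, so the small subunit was near the background. All 4 members with an IDR peak and all 7 in the strongest 10% of the pooled list were mrpl- genes. These were 9.76% of mrpl- genes (interval 3.86 to 22.5), beside 1.78% of all genes, and 17.1% (interval 8.53 to 31.3), beside 6.35%. No mrps- gene was in either group, the pooled peak of mrps-28 lying just past the limit. By the same interval this allows a share of up to 11.7%, which includes both shares of all genes. The 2 subunits' intervals overlapped for each of these counts. In the strongest 10% of the replicate 2 list the subunits were level, with 9 mrpl- genes (22%, interval 12 to 36.7) and 8 mrps- genes (27.6%, interval 14.7 to 45.7). That part of the list reached 9.01% of all genes, below both intervals.

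**Figure D2:**
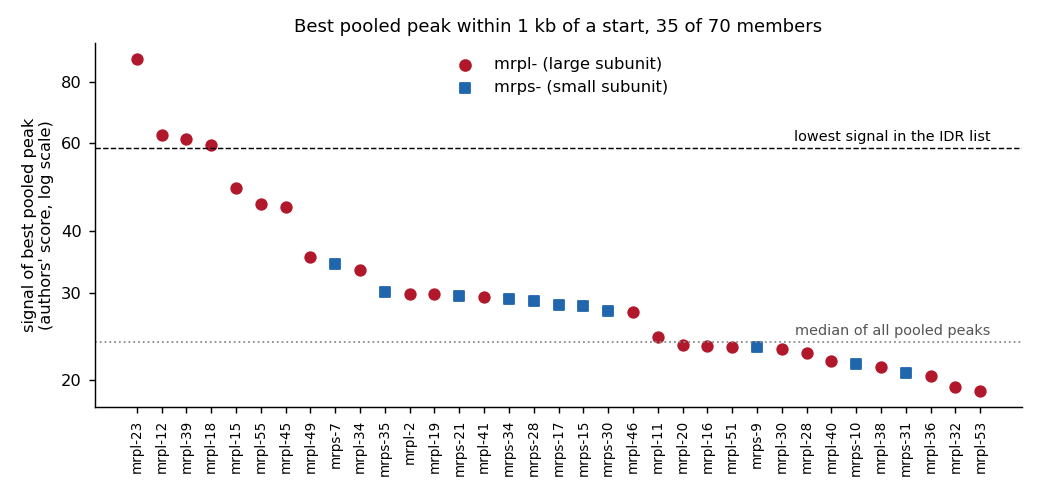
Signal of the strongest pooled peak within 1 kb of a start (y axis, authors' score, log scale) for the 35 members with such a peak (x axis, sorted), with circles for the large and squares for the small subunit. Only 4 members, all mrpl-, lie above the dashed line at 58.9, the lowest signal of the IDR list, and the dotted line is the median of all pooled peaks at 23.9.

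The highest pooled signal of any member was that of mrpl-23, the relative of a bacterial protein at the exit of the ribosome tunnel, and its peak sat on another RNA gene. Its summit lay 939 bp upstream of the mrpl-23 start with a pooled signal of 88.7 (rank 158), and in replicate 1 the signal was 67.1 (rank 109). Replicate 2 had its peak (27.3, rank 327) 1008 bp from the start, just past the 1 kb limit. The pooled summit was at position 6212824 of chromosome I in ce11, inside the snoRNA gene T08B2.13 (6212696 to 6212824), which lies within fars-1, a gene of a cytosolic phenylalanyl-tRNA synthetase. Of the 407 IDR peaks, 173 had a summit at most 100 bp from a gene of tRNA or snoRNA. With such peaks left out, 3 members kept an IDR peak (4.29%), beside 1.44% of all genes.

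A snoRNA gene also lay beside the strongest replicate peaks of any member, those at mrps-28, a small subunit gene. In replicate 1 its best peak had a signal of 85.4 (rank 58) and in replicate 2 one of 79.6 (rank 16), the strongest of any member in either replicate. These summits lay 977 and 991 bp upstream of the start, 75 and 61 bp from the snoRNA gene Y43F8C.22 on chromosome V. The matching pooled peak had a signal of 167.0 (rank 25), was in the IDR list and lay 1007 bp away, so mrps-28 was not counted as having an IDR peak. Nearer to its start, 138 bp downstream, mrps-28 had a pooled peak of 28.8 (rank 4325), and replicate 1 had one of 28.2 (rank 1125) 128 bp downstream.

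Away from small RNA genes, mrpl-39 had the one IDR peak that lay nearer to a member's start than to any other protein-coding start. MRPL39 in humans resembles threonyl-tRNA synthetases in sequence. The mrpl-39 summit lay 94 bp upstream of the start with a pooled signal of 61.3 (rank 378), and the signal was 37.7 (rank 432) in replicate 1 and 21.6 (rank 683) in replicate 2. The 3 summits fell within 4 bp of each other. The divergently transcribed gly-7 started 162 bp from the pooled summit. Counted by nearest start alone, 2 members, mrpl-39 and mrpl-23, had an IDR peak (2.86%, interval 0.787 to 9.83), beside 1.25% of all genes. With peaks at tRNA and snoRNA genes left out as well, mrpl-39 was the 1 member left (1.43%, interval 0.253 to 7.66), beside 0.946% of all genes. Both intervals include the share of all genes.

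The other IDR peaks, at mrpl-12 and mrpl-18, lay between divergent genes and closer to the neighbour. mrpl-12 belongs to the family of the bacterial stalk protein that receives translation factors. Its pooled signal was 62.3 (rank 362), with 35.5 (rank 522) in replicate 1 and 19.3 (rank 1093) in replicate 2. All 3 summits were the same base, 505 bp upstream of mrpl-12 and 228 bp from the start of Y39A1A.22. mrpl-18 is of the family that binds 5S ribosomal RNA in bacteria. Its pooled signal was 59.5 (rank 402), with 24.7 (rank 1985) in replicate 1 and 29.4 (rank 258) in replicate 2, and the pooled summit lay 254 bp upstream of mrpl-18 and 132 bp from the start of C14B9.8. Both replicates thus placed a peak upstream of mrpl-39, mrpl-12 and mrpl-18, while the order of their ranks differed between the replicates.

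The IDR threshold fell between mrpl-18 and mrpl-15. Just inside it were mrpl-12, mrpl-39 and mrpl-18 at 62.3, 61.3 and 59.5, and just outside were mrpl-15 at 48.8, mrpl-55 at 45.4 and mrpl-45 at 44.7. The mrpl-15 peak, 680 bp upstream, had a signal of 28.8 (rank 1051) in replicate 1 and 21.9 (rank 648) in replicate 2. mrpl-55, named after a human protein of the large subunit that has no bacterial counterpart, had 23.0 (rank 2702) in replicate 1 and 17.1 (rank 1935) in replicate 2, with a pooled summit 77 bp upstream. mrpl-45, whose human relative lies by the tunnel exit at the inner membrane, had 19.1 (rank 5893) in replicate 1 and 23.2 (rank 544) in replicate 2. The pooled mrpl-45 summit was 275 bp upstream and 263 bp from the start of the divergent Y119D3B.12. These 3 peaks were in the strongest 10% of the pooled list and of the replicate 2 list, and only mrpl-15 was also in that of replicate 1.

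The remaining members among the 20 with the highest pooled signal formed a plateau. It began with mrpl-49 at 35.4, 88 bp upstream and 431 bp from the divergent start of rpl-28, a gene of the cytosolic ribosome. mrps-7, the strongest small subunit gene in the pooled list and a relative of the bacterial protein that nucleates the head of the subunit, followed at 34.2, and mrpl-34 at 33.4. From mrps-35 at 30.1 to mrps-30 at 27.6 lay 10 more, namely mrps-35, mrpl-2, mrpl-19, mrps-21, mrpl-41, mrps-34, mrps-28, mrps-17, mrps-15 and mrps-30. The median over the 35 members with a pooled peak was 28.3, beside 25.7 over the 7136 genes with one. The upper quartile of all pooled peaks, 28.7, was reached by the best peak of 17 of these members (48.6%, interval 33 to 64.4), beside 35.6% of the 7136 genes, a share inside that interval. The lowest was mrpl-53, the only member with a pooled peak and none in either replicate.

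Replicate 2 placed more members among its strong peaks than replicate 1 did. The strongest 10% of the replicate 1 list reached 7 members (10%, interval 4.93 to 19.2), beside 6.86% of all genes, and the strongest 10% of the replicate 2 list reached 17 (24.3%, interval 15.8 to 35.5), beside 9.01%. Both reached 5 members (7.14%, interval 3.09 to 15.7, which includes the background), beside 3.15% of all genes. These were mrpl-12, mrpl-39, mrpl-18, mrpl-15 and mrps-28. Of the 12 that only replicate 2 reached, 7 were small subunit genes, such as mrps-15 with a signal of 20.8 (rank 806) in replicate 2 and 13.3 (rank 18087) in replicate 1. The small subunit gene mrps-17, whose bacterial relative binds the small ribosomal RNA, had a signal of 18.9 (rank 1202) in replicate 2 and no peak in replicate 1. mrps-25, named after its values were seen, had 20.7 (rank 815) in replicate 2 and no peak in the other lists. Among members with a peak in both lists, 16 of 25 (64%) held a higher place in the replicate 2 list, scaled by list length, beside 54.2% of 5511 genes with a peak in both. No interval was computed for this share of 25 members, so a difference is not shown.

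**Figure D3:**
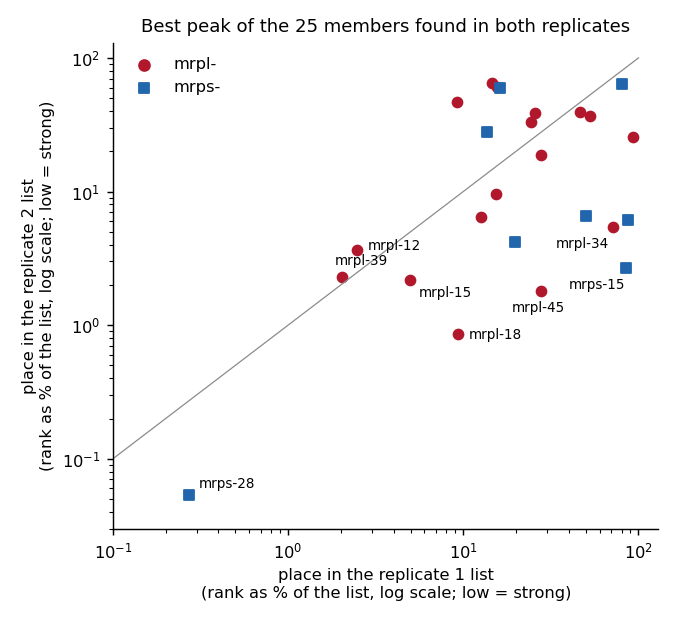
Place of the best peak in the replicate 1 list (x axis) and the replicate 2 list (y axis), each as rank in percent of the list's length on a log scale, for the 25 members with a peak in both; low values are strong peaks and the line marks equal places. mrps-28 stands alone at the lower left, mrpl-12, mrpl-39, mrpl-18 and mrpl-15 are in the strongest 10% of both lists, and mrpl-45, mrpl-34 and mrps-15 are among those in the strongest 10% of the replicate 2 list only.

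The ranks of the members were weakly related between the replicates. Over the 25 members with a peak in both replicates, Spearman's rho between the signals was 0.26 and Pearson's r of the log2 signals 0.62, which describe genes of the same 2 libraries and carry no test. Without mrps-28, whose replicate peaks sat at a snoRNA gene, rho was 0.16 and r 0.24 over 24 members. For the 22 members with a peak in all 3 lists, the replicate summits were a median of 118 bp apart. They lay within 100 bp of each other at 9 members and over 500 bp apart at 6, so that at some members the replicates' best peaks were not the same site. Neither rho and r nor these distances were set beside those of all genes, so they cannot be read as particular to the members. Read depth of the replicates is unknown, and its part in these differences was not tested.

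Counted over the pooled, replicate 1 and replicate 2 lists, 22 members had a peak in all 3 (31.4%, interval 21.8 to 43), beside 22.8% of all genes. There were 15 members with a peak in 2 lists (21.4%), beside 17% of all genes, and 18 with a peak in 1 (25.7%), beside 26.8%. No list had a peak at 15 members (21.4%, interval 13.4 to 32.4), beside 33.5% of all genes. Those with none were 9 large subunit genes (mrpl-4, mrpl-10, mrpl-13, mrpl-17, mrpl-22, mrpl-24, mrpl-37, mrpl-42 and mrpl-44) and 6 small subunit genes (mrps-2, mrps-5, mrps-12, mrps-18.C, mrps-18B and mrps-18C). Among them were mrps-5, the gene of the lifespan and stress response experiments, and mrps-12, the relative of a bacterial protein at the decoding centre. A missing entry says only that no summit was listed within 1 kb. Of the 35 members without a pooled peak, 20 had one in at least 1 replicate list (57.1%, interval 40.9 to 72), beside 47.9% of all genes without a pooled peak. At 3 of them (8.57%) both replicates had one, beside 7.51%, so these shares were near the background.

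Summits of the members lay mostly upstream of the start, as did those of all genes with a pooled peak. The summit was upstream at 25 of 35 members (71.4%), beside 59.8% of all genes with a pooled peak. No interval was computed for the members' share, so a difference is not shown. The median position was 88 bp upstream (quartiles 265.5 bp upstream and 76.5 bp downstream), and over all genes it was 132 bp upstream (450.25 bp upstream and 295.25 bp downstream). In the region from 200 bp upstream to 100 bp downstream lay 12 of 35 members' summits (34.3%, interval 20.8 to 50.8), beside 22.7% of all genes, which is inside that interval. The own start was the nearest protein-coding start for 26 of the 35 members (74.3%), beside 83.5% of all genes. At 19 of the 35 a start of another gene also lay within 1 kb of the summit, a count that was not set beside that of all genes. Counted by nearest start alone, 28 of 70 members (40%) had a pooled peak, beside 30.9% of all genes.

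**Figure D4:**
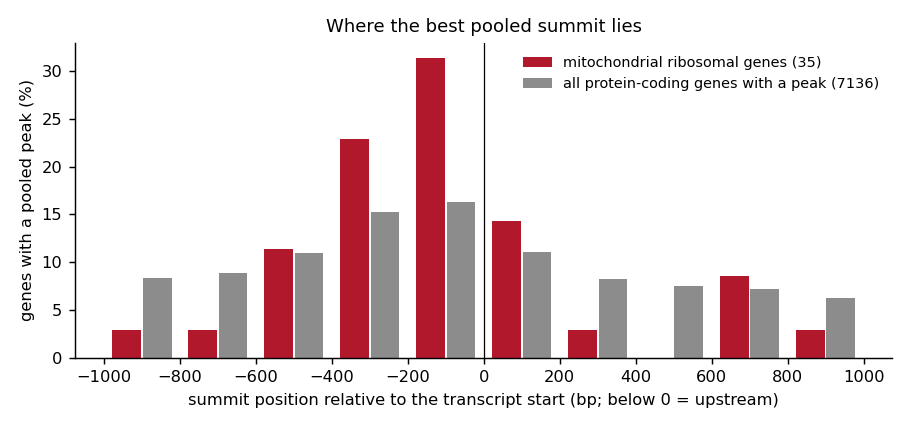
Position of the best pooled summit relative to the transcript start (x axis, bp, bins of 200 bp, upstream below 0) as percent of genes with a pooled peak (y axis), with the 35 members left of the 7136 genes of all kinds in each bin. The 200 bp before the start hold 31.4% of the members' summits, those of 11 members, and 16.3% of those of all genes. No intervals were computed for single bins.

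Mitochondrial ribosomal genes lay closer to their upstream neighbours than genes at large, and peaks were spread unevenly over these arrangements, a comparison chosen after the values were seen. A divergent neighbour within 1 kb stood upstream of 25 members (35.7%), beside 17.2% of all genes. A neighbour on the same strand that ended at most 150 bp upstream stood before 20 (28.6%), beside 7.88%, with gaps of 25 to 116 bp. In C. elegans such short gaps are typical of downstream genes of operons, which are transcribed from a start further upstream, but the annotation used here does not mark operons. Of these 20 tandem members, 5 had a pooled peak (25%, interval 11.2 to 46.9), beside 37.9% of all genes so placed, and 1 had a peak in both replicates (5%), beside 26.8%. Members with a divergent neighbour had a pooled peak in 15 of 25 cases (60%, interval 40.7 to 76.6), beside 44.6%. At 7 of these 15 the summit lay nearer to another gene's start, a count that was not set beside that of all genes. For both classes the pooled share of all genes lay inside the members' interval. Those with no gene within 1 kb upstream had one in 7 of 8 cases (87.5%, interval 52.9 to 97.8), beside 34.4%, and those with a tandem gap of 151 bp to 1 kb in 7 of 12 (58.3%, interval 32 to 80.7), beside 31.3%. Members whose 5′ end lay inside another gene had one in 1 of 5 cases (20%, interval 3.62 to 62.4), beside 33.1%. Of the 15 members with no peak in any list, 7 were in the close tandem class (46.7%, interval 24.8 to 69.9), mrps-5 among them, 103 bp behind sel-1. That class held 28.6% of all members, a share inside this interval, and 7.03% of all genes with no peak in any list.

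**Figure D5:**
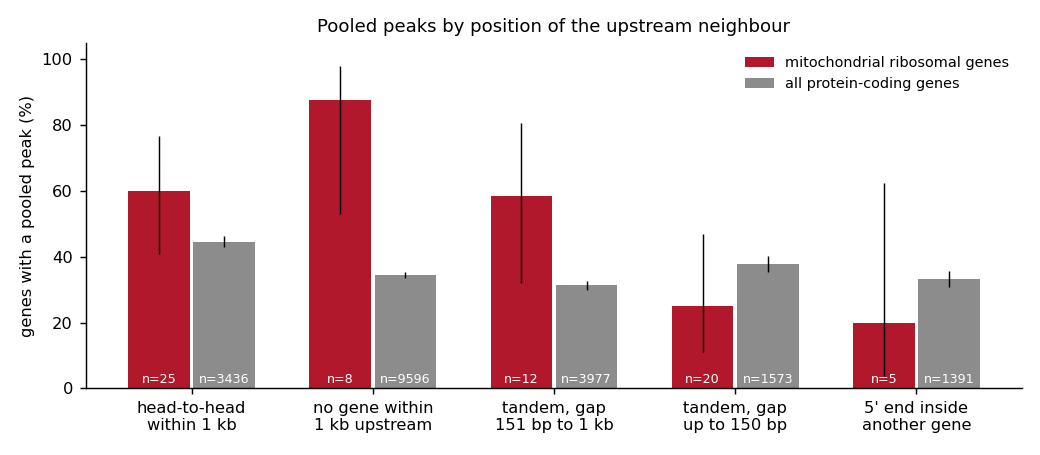
Share of genes with a pooled peak (y axis, percent, Wilson 95% intervals) by the position of the upstream neighbour (x axis), with the mitochondrial ribosomal genes left of all protein-coding genes and the number of genes in each bar. Of the 20 members that follow a neighbour on the same strand by at most 150 bp, 25% had a pooled peak, against 60% of the 25 with a divergent neighbour. At 7 members with a pooled peak and a divergent neighbour, the summit lay nearer to another gene's start, a count not set beside that of all genes.

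The DNA under the members' summits held E-boxes about as often as DNA under other summits. In windows of 201 bp around the best pooled summit, CANNTG in any form was found at 19 of 35 members (54.3%), beside 52.5% of 6040 distinct windows at all genes. CAAGTG was found at 5 members (14.3%), beside 9.07%, CACATG at 2 (5.71%), beside 6.42%, and CACGTG at 2 (5.71%), beside 3.43%. Each was sought on both strands, and all 3 are forms of CANNTG. The motif CCGCAC was found at 1 member, mrpl-15 (2.86%), beside 5.08% of all windows, and CGCACA, which can overlap CCGCAC by 5 letters, at 4 members (11.4%), beside 6.97%. The mrpl-12, mrpl-39 and mrpl-18 windows each held CGCACA, as the printed runs show, while that of mrpl-23, the other member with an IDR peak, did not. Of the windows of all IDR peaks, 20.4% held it. In promoters, from 250 bp before to 50 bp after the start, CCGCAC was found at 7.14% of the 70 members, beside 4.32% of all genes, CGCACA at 11.4%, beside 7.22%, and CANNTG at 64.3%, beside 69.5%. CGCACA was in 2 promoters of the 35 members with a pooled peak (5.71%) and in 6 of the 35 without one (17.1%). For CCGCAC these shares were 8.57% and 5.71%, and for CANNTG 62.9% and 65.7%. For CAAGTG the promoter shares were 10% of members, beside 12.4% of all genes, for CACATG 4.29%, beside 9.99%, and for CACGTG 7.14%, beside 5.84%. A match describes the letters in the window and does not show that a protein bound them.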

How the data were processed

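ChIP-seq peak lists of 2 biological replicates were used as deposited. Per the notes deposited with the files, the authors derived the replicate and pooled lists from alignments with a control library, and made the IDR list out of them. The software for alignment and peak calling is not given in the sources used here, nor is read depth. The authors' deposited signal value (column 7) ranked peaks within a list, and the deposited −log10 q value was copied but not used to rank. The ce10 lists were not used, and no coordinates were converted. Summits were set against 29784 transcript starts of protein-coding genes (Ensembl release 115, WBcel235), with sequence from the RefSeq copy of that assembly.

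Per gene, the strongest peak with a summit within 1 kb was kept. Shares have Wilson 95% intervals. No tests were made. Computation used Python 3.11.15, numpy 2.4.6, pandas 2.3.3 and scipy 1.17.1, and was tested on simulated data. The members, the gene lists and the motifs were chosen with earlier results of these data known. The genes named were members with an IDR peak, the 20 with the highest pooled signal, the 3 on each side of the IDR threshold, those with no peak, and up to 4 leading genes of each comparison list. The members mrps-25, mrpl-53, mrpl-1 and mrps-24 were named after their values were seen. The comparisons of neighbouring genes, of the strongest 10% of each replicate list and without mrps-28, and 4 of the alternatives, were added after the data were seen. Alternatives covered distance, assignment to the nearest start, list strictness, windows and each replicate alone.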

Additional observations from a re-analysis of the deposited data

How the results depend on the processing

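The count of 4 members with an IDR peak was 2 with a 500 bp limit, 2 with nearest starts only, 1 among the strongest 204 peaks of that list, and 1 with nearest starts and no peaks at small RNA genes. The count of 7 in the strongest 10% of the pooled list was 4 at 500 bp, 11 at 2 kb and 4 with nearest starts only. The 25 members with a peak in both replicates were 41 at 2 kb and 8 with the strongest 5000 peaks of each, and the 35 with a pooled peak were 19 with the strongest 5000. CCGCAC was found in 2.86% of member windows and in 0% of windows of 50 bp to each side. With 1 replicate's list in place of the pooled list, the pooled count ran from 35 (50%) to 44 (62.9%), beside 40.8% and 52.4% of all genes. The strongest 10% count was 7 (10%) without replicate 2 and 17 (24.3%) without replicate 1, beside 6.86% and 9.01% of all genes. The CCGCAC share ran from 2.33% to 2.86%, and the share of summits near the start from 29.5% to 31.4%. An IDR list cannot be made from 1 replicate, so the 407 strongest peaks of each replicate list stood in for it. They reached 2 members in each, mrps-28 and mrpl-23 in replicate 1 and mrps-28 and mrpl-18 in replicate 2. mrps-28 is not 1 of the 4 members with an IDR peak. The cause of these moves was not tested. Of the alternative counts, only the IDR counts by nearest start and the pooled and strongest 10% counts per replicate list have all-gene shares. The others were not set beside all genes, so their moves cannot be read as particular to the members. The IDR count was 6 at 2 kb and 6 with any base of the peak counted, and the CCGCAC share was 5.71% with 200 bp to each side. The other alternatives moved each result by less than 1.5 times. No paired analysis was possible because there is 1 group. Depth is unknown, so the absence of a peak at a member cannot be told from lack of reads.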

Other observations

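At the gene of the tagged factor itself, hlh-15, the pooled list had a peak of signal 22.5 (rank 10794), replicate 1 one of 23.7 (rank 2364) and replicate 2 one of 11.9 (rank 8808), and the IDR list had none within 1 kb. At unc-119, the marker gene of the transgene, the pooled signal was 20.9 (rank 13552) and that of replicate 2 was 18.2 (rank 1434), with no peak in replicate 1. On mitochondrial DNA, which encodes the RNA of the mitochondrial ribosome, the replicate 1 list had 1 peak, and the pooled and replicate 2 lists had 0.

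Neighbouring members can share a peak. mrpl-1 and mrps-24 each had the replicate 2 peak of signal 11.7 (rank 9318) as their best, 405 bp upstream of mrpl-1 and 61 bp downstream of the mrps-24 start, and neither had a peak in the other lists. In the pooled list the best peaks of the 35 members were 35 distinct peaks.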
